A study of Mus musculus with 11 samples.

Results

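The core clock genes examined here are the 10 genes of the transcriptional activators Arntl, Npas2 and Clock, the period genes Per1, Per2 and Per3, the cryptochrome genes Cry1 and Cry2, and the nuclear receptor genes Nr1d1 and Nr1d2. They were chosen by name, and every probe that the array files name after one of these genes was read. This gave 11 of the 55681 probes of the array that are not control probes, 1 probe for each gene and 2 for Cry2. Gene expression was measured in the descending aorta of male C57BL/6 mice aged 20 months, to ask which transcripts differ after a diet rich in nitrate. The old nitrate treated mice (n = 5) drank water with 1 g/L NaNO3 over 8 weeks, and the old control mice (n = 6) are named as controls in the labels. The study's methods say that controls were given sodium chloride at the same concentration. The labels repeat the nitrate treatment text for the controls too and mention no sodium chloride. They set the controls apart by title, by agent and by a remark that earlier samples were analysed again. Each array held the RNA of a single mouse, and the labels name no transgene or deletion. The array of 1 more nitrate treated mouse was not used here.

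The clock of mammalian cells is a feedback loop of transcription. The proteins of Arntl (BMAL1) and of Clock or Npas2 pair on E-box DNA and activate the Per and Cry genes and the Nr1d1 and Nr1d2 genes, whose PER, CRY and REV-ERB proteins then repress the activators or their genes. The loop runs in the smooth muscle and endothelium of arteries as well as in the brain, Arntl and Per transcripts peak at different hours of the day, and so their levels depend on the hour of dissection. Neither the labels nor the methods give that hour for either group, and its part in the differences below was not tested.

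Each probe is a DNA strand of 60 bases that binds the labelled copy of a transcript. The first 30 bases, written 5′ to 3′, are shown for the 5 probes on which the results below turn most.
Arntl probe: gagccattgatacaagtcaatctaccatgt
Per2 probe: acctttcacagtgatcaggtagtagccatg
Per3 probe: ggctctttccttaagatctgtcagctagcc
Nr1d1 probe: ggcacctttgaggtgctgatggtgcgcttt
Nr1d2 probe: ccagaactgttagtattgcttgtgatgctt

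Regulatory DNA of these genes is shown for Per1, Per3 and Nr1d2, which were called higher, and for Nr1d1, the paralog of Nr1d2 that was not called, with the matched motif letters in capitals. The sequences are the 250 bases before the start site in the RefSeq promoter table of GRCm38.p6, which held 13 start sites for 9 of the 10 genes. Letters searched on both strands, in windows that reach 50 bases past the start, were CACGTG (an E-box, in 7.15% of all 32851 windows of the table), CACGTT (a variant E-box, 4.68%), AGGTCA (the core of the element bound by ROR and REV-ERB proteins, 16.3%), TTATGTAA and TTACGTAA (D-boxes, the element bound by DBP, TEF, HLF and NFIL3, 0.938% and 0.119%) and TGACGTCA (a cAMP response element, 1.79%).
Per1 promoter, chr11:69098699-69098948, plus strand: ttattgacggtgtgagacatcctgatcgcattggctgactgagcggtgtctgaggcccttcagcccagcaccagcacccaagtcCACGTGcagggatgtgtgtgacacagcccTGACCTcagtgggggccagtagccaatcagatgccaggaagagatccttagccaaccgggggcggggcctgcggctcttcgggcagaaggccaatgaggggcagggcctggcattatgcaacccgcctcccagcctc
Per3 promoter, chr4:151044666-151044915, minus strand: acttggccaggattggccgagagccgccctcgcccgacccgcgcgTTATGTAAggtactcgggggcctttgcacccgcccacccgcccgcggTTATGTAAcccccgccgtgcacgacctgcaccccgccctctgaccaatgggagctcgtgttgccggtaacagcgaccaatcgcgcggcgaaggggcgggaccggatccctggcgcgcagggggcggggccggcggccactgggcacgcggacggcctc
Nr1d1 promoter, chr11:98775378-98775627, minus strand: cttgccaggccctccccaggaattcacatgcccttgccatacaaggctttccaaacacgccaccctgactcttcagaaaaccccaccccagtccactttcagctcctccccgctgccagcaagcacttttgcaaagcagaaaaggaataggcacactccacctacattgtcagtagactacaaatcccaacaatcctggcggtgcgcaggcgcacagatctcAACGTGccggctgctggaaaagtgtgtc
Nr1d2 promoter, chr14:18239107-18239356, minus strand: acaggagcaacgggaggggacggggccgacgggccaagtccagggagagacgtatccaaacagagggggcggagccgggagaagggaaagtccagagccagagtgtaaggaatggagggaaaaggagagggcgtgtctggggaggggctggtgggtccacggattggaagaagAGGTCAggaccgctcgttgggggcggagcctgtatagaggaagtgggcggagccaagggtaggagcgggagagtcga

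The Per3 window held TTATGTAA at 205 and at 158 bases before the start, and no other member's window held a D-box. The Per1 window held CACGTG at 166 bases before the start and, on the other strand, AGGTCA at 137 bases. The second start site of Per1 in the table held none of these letters. The Nr1d1 window held CACGTT on the other strand at 28 bases before the start, and the Nr1d2 window AGGTCA at 77 bases. In Arntl the match lay behind the second start site, at base 32 of the transcript, and its surroundings are given in the same way.
Arntl, chr7:113207531-113207560, plus strand: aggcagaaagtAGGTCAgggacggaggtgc

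Among the other members, Cry1 held CACGTG at 60 and CACGTT at 79 bases before its start, Cry2 held CACGTT at 166 bases, and the third start site of Clock held AGGTCA at 119 bases. The window of Npas2 held none of these letters, and Per2 has no entry in the table. A match of letters is a description of the sequence and does not show that a protein binds there.

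The arrays were 1-color Agilent mouse arrays on 3 slides. The 75th percentile of the processed signal lay between 213 and 289, and between 26443 and 30891 probes of an array were well above background. All 6 smooth muscle markers examined were well above background on every array. Controls took up column 3 of each slide and nitrate treated mice columns 1, 2 and 4, so that the treatment cannot be told apart from the column. In an extract of whole tissue, fewer cells that express a gene cannot be told apart from less RNA in each cell. Precision is limited by having 11 arrays.

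A gene was counted as called when limma's moderated test gave an unadjusted P value under 0.05 and the fold change was above 1.2, the thresholds of the study's methods. Of the 10 core clock genes 9 could be tested, and 4 of these were called higher in nitrate treated mice, where 4.28% of all 26158 tested probes were. Called lower were 2 genes, against 4.86% of all probes. One of them, Npas2, passed the detection rule only through the controls, where it was brighter, so these counts and the median below support nothing about it. A spot both located and well above background on all 11 arrays was a rule met by Arntl, Per1, Per2 and Cry2. Under it 2 genes were called higher and 1 lower, where 724 and 904 of 19149 tested probes were. The genes called higher were the repressors Per1, Per2, Per3 and Nr1d2, and those called lower were the activators Arntl and Npas2. Clock, Cry2 and Nr1d1 were not called, and Cry1 was not well above background on any array. Without the limit on the fold change 7 of the 9, Npas2 among them, had a P value under 0.05, against 14% of all probes. In Per2 and Per3 every nitrate treated mouse lay above every control, and the groups did not overlap in 2.68% of all probes. After Benjamini-Hochberg adjustment over all tested probes no core clock gene passed 0.05, and neither did any other probe (0% of 26158). The smallest adjusted P value among them was 0.104, for Per3. The median of the absolute log2 difference was 0.70 over the 9 genes and 0.11 over all tested probes, and the median difference of all tested probes was 0.015.

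**Figure D1:**
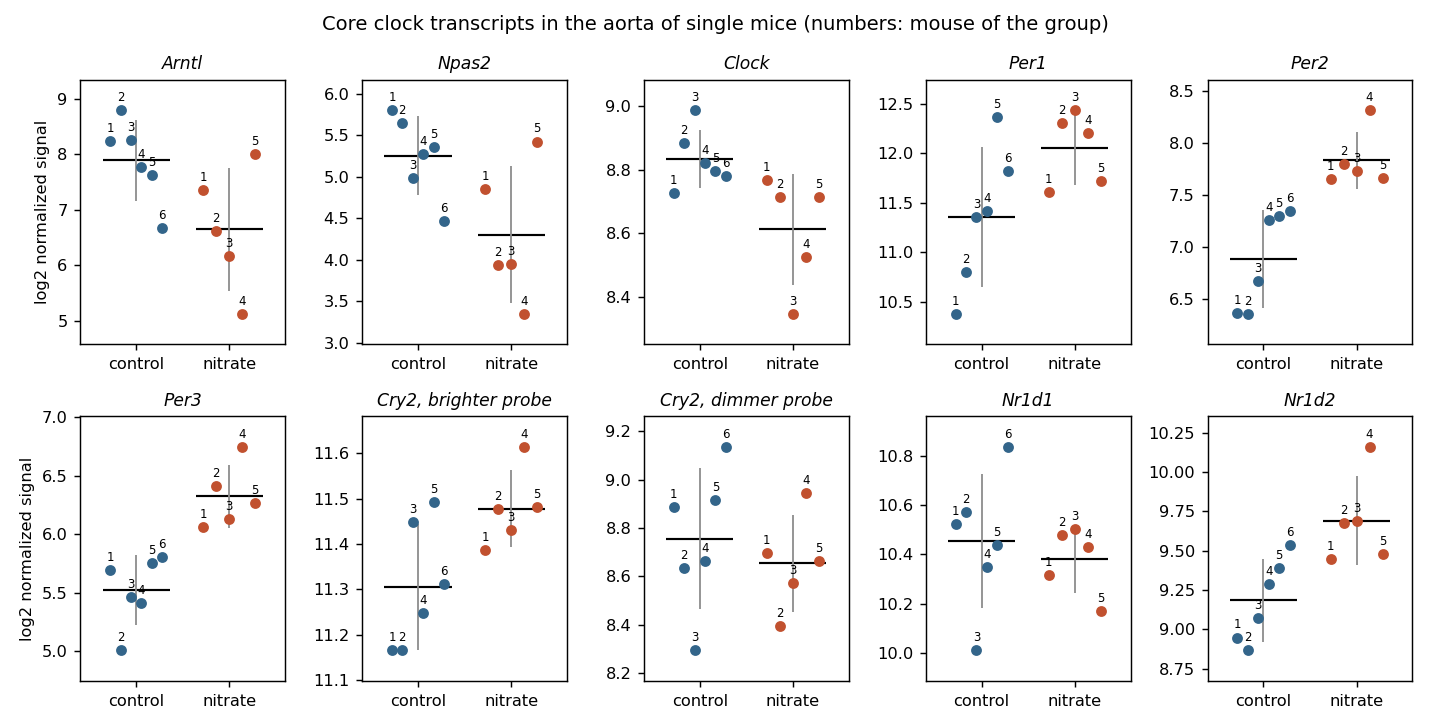
Normalized log2 signal (vertical axis, a separate scale in each panel) of the 10 core clock probes tested, with controls in blue and nitrate treated mice in red and each point 1 mouse with its number in the group. Horizontal lines are group means and vertical lines 1 SD; the groups do not overlap for Per2 and Per3, and Arntl is lowest in nitrate treated mouse 4, at 5.12.

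Arntl encodes BMAL1, the activator without which the loop stops. Its probe (chr7:120457261-120457320 of mm9, plus strand) had normalized log2 signals of 7.35, 6.61, 6.16, 5.12 and 8.01 in nitrate treated mice 1 to 5. In controls the lowest was 6.67, the median 8.00 and the highest 8.79. The values of 3 nitrate treated mice lay below every control, while those of mice 1 and 5 lay among the controls, so the groups overlapped. Arntl was 2.36-fold lower, with means of 6.65 ± 1.11 (SD, n = 5) and 7.89 ± 0.73 (SD, n = 6) and a difference of -1.24 with a standard error of 0.49 (limma, P = 0.0257, adjusted P = 0.304; exact permutation test, two-sided, p = 0.0476). By size this was the 28th largest difference of the 26158 tested probes. The call was lost without nitrate treated mouse 3 (a difference of -1.12), nitrate treated mouse 4 (-0.86), control 1 (-1.17) or control 2 (-1.06).

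Npas2 encodes a paralog of CLOCK that pairs with BMAL1 in its place. The Npas2 probe (chr1:39418941-39419000 of mm9, plus strand) gave log2 signals of 4.85, 3.93, 3.95, 3.35 and 5.42 in nitrate treated mice 1 to 5. In controls its lowest, median and highest values were 4.47, 5.31 and 5.80. As for Arntl, mice 2, 3 and 4 lay below every control and mouse 5 lay highest in its group. The probe was well above background in all 6 controls and in 2 of 5 nitrate treated mice, so it entered the test only through the controls and the low values rest on dim spots. The measured difference was -0.95 with a standard error of 0.35. It is given without a test, since the probe was admitted through the group in which it was brighter. Its size depended on how the background was treated, at -0.28 with normexp background correction and -0.57 with an offset of 16 added to the signal. Without nitrate treated mouse 4 the difference was -0.71 and the call was lost.

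Clock, the usual partner of BMAL1, was not called. Its probe (chr5:76641377-76641436 of mm9, minus strand) had log2 signals of 8.77, 8.71, 8.35, 8.53 and 8.71 in nitrate treated mice and a lowest, median and highest value of 8.73, 8.81 and 8.99 in controls. Of the 5 nitrate treated mice 4 lay below every control. The difference came to -0.22 with a standard error of 0.09, a 1.16-fold difference under the limit of 1.2 (limma, P = 0.0263, adjusted P = 0.306; exact permutation test, p = 0.00649). The spot of Clock was located by the image software on 1 of 5 nitrate and 4 of 6 control arrays, although its signal was well above background on all 11.

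The period genes encode the PER proteins, which bind BMAL1 and CLOCK and hold them inactive, and all of them were called higher. Per1 (probe at chr11:68923364-68923423 of mm9, plus strand) had log2 signals of 11.61, 12.31, 12.43, 12.20 and 11.72 in nitrate treated mice. Controls ranged from 10.38 to 12.36 with a median of 11.39. Control 5 lay above 4 of the 5 nitrate treated mice, so the overlap was wide. Per1 was 1.62-fold higher, by 0.70 with a standard error of 0.31 (limma, P = 0.0447, adjusted P = 0.347; exact permutation test, p = 0.0779), so that the exact test did not pass 0.05. Its call was lost when any of nitrate treated mice 2, 3 or 4 or of controls 1 to 4 was left out, with differences between 0.50 and 0.71.

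Per2 (probe at chr1:93313046-93313105 of mm9, minus strand) had log2 signals of 7.65, 7.80, 7.73, 8.31 and 7.66 in nitrate treated mice. Controls ranged from 6.35 to 7.34, with a median of 6.96. The groups did not overlap, 4 of the nitrate treated mice lay close together, and mouse 4 stood above them. Per2 was 1.93-fold higher, with means of 7.83 ± 0.28 (SD, n = 5) and 6.88 ± 0.47 (SD, n = 6) and a difference of 0.95 with a standard error of 0.22 (limma, P = 0.000861, adjusted P = 0.137; exact permutation test, p = 0.00433).

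Per3 (probe at chr4:150379256-150379315 of mm9, minus strand), the period gene that the loop can do without, had log2 signals of 6.06, 6.41, 6.13, 6.75 and 6.27 in nitrate treated mice. Controls ranged from 5.01 to 5.81 with a median of 5.58, below every nitrate treated mouse. Per3 was 1.74-fold higher, with means of 6.32 ± 0.27 (SD, n = 5) and 5.52 ± 0.30 (SD, n = 6) and a difference of 0.80 with a standard error of 0.16 (limma, P = 0.000301, adjusted P = 0.104; exact permutation test, p = 0.00216). This exact p is the smallest that 5 against 6 mice can give. With normexp background correction the difference was 0.43. The spot was located on 2 of 5 nitrate and 5 of 6 control arrays, with a signal well above background on all 11.

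The cryptochrome genes encode CRY proteins, the repressors that act together with PER. The Cry1 probe (chr10:84594731-84594790 of mm9, minus strand) was not well above background on any array, with processed signals between 4.23 and 16.7, so no difference is given for Cry1. Cry2 has a pair of probes. The brighter of them (chr2:92243807-92243866 of mm9, minus strand) had log2 signals of 11.39, 11.48, 11.43, 11.61 and 11.48 in nitrate treated mice, against a lowest, median and highest value of 11.17, 11.28 and 11.49 in controls. Of the nitrate treated mice 4 lay in the upper part of the range of the controls and mouse 4 lay above it, and the difference of 0.17 with a standard error of 0.08 was not called (limma, P = 0.0507, adjusted P = 0.359; exact permutation test, p = 0.0476). The dimmer probe (chr2:92251417-92251476 of mm9, minus strand) went the other way by -0.10 with a standard error of 0.14 (limma, P = 0.489; exact permutation test, p = 0.517), and its 95% interval reached from -0.41 to 0.21. The probes of Cry2 therefore showed no common direction.

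Nr1d1 and Nr1d2 encode REV-ERBα and REV-ERBβ, nuclear receptors that repress Arntl. Nr1d2 (probe at chr14:19037253-19037312 of mm9, minus strand) had log2 signals of 9.45, 9.68, 9.69, 10.16 and 9.48 in nitrate treated mice and a lowest, median and highest value of 8.87, 9.18 and 9.54 in controls. Only control 6 lay above the lowest nitrate treated mouse. Nr1d2 was 1.42-fold higher, by 0.51 with a standard error of 0.15 (limma, P = 0.00606, adjusted P = 0.214; exact permutation test, p = 0.0152), with the spot located on 4 of 5 nitrate and 3 of 6 control arrays. Leaving out each mouse in turn kept the difference between 0.39 and 0.58.

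Nr1d1 was not called, unlike Nr1d2. Its log2 signals were 10.32, 10.48, 10.50, 10.43 and 10.17 in nitrate treated mice, and in controls the lowest, median and highest values were 10.01, 10.48 and 10.83. All 5 nitrate treated mice lay inside the range of the controls. The difference was -0.073 with a standard error of 0.13 and a 95% interval from -0.35 to 0.20, so a rise as large as that of Nr1d2 lay outside the interval (limma, P = 0.575; exact permutation test, p = 0.606). The probe covers 60 bases spread over chr11:98630526-98631028 of mm9 on the minus strand. Thra, the thyroid hormone receptor gene that lies next to Nr1d1 on the opposite strand, had probes with differences of -0.060 and -0.22, neither of which was called (exact permutation tests, p = 0.437 and p = 0.108). Thra was picked after its values had been seen.

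Whether related genes moved unequally was tested on the log2 ratio of the pair within each mouse, for the 5 pairs in which both genes passed the detection rule, with exact permutation tests and Benjamini-Hochberg adjustment over the 5. The ratio of Nr1d1 to Nr1d2 fell by 0.58 on the log2 scale with a standard error of 0.17, and the groups did not overlap (exact permutation test, p = 0.00433, adjusted p = 0.0216). Left out 1 at a time, the mice kept this difference between -0.65 and -0.48. The ratio of Clock to Npas2 is given without a test, although it is 1 of the 5 in the adjustment, since the Npas2 spots of 3 nitrate treated mice were not well above background. It differed by 0.73 with a standard error of 0.39, by 0.089 with normexp background correction and by 0.36 with an offset of 16. Among the period genes the ratio of Per1 to Per2 differed by -0.26 (standard error 0.22), that of Per1 to Per3 by -0.11 (0.31) and that of Per2 to Per3 by 0.15 (0.17), with exact permutation p values of 0.275, 0.740 and 0.509. The ratio of the REV-ERB pair thus differed between the groups by this test. The test exchanged mice between slides and cannot tell the treatment from the slide column. The pairs of period genes did not pass the test.

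**Figure D2:**
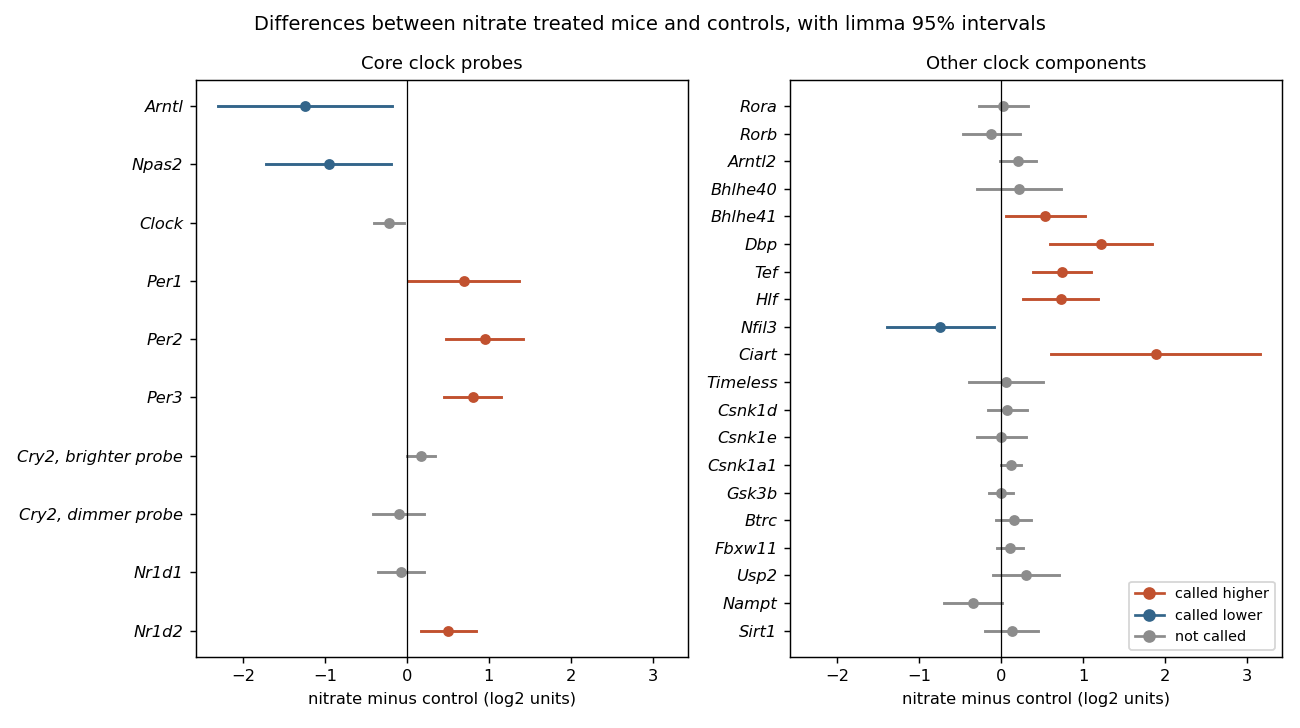
Difference between nitrate treated mice (n = 5) and controls (n = 6) in log2 units (horizontal axis) for the 10 core clock probes tested on the left and 20 other clock components on the right, with limma's 95% intervals as lines. Red marks transcripts called higher, blue those called lower and grey those not called; Arntl lies at -1.24, Per2 at 0.95 and Ciart at 1.88.

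Each slide held mice of both groups, which allowed the comparison within a slide. Slides 1 and 3 held 2 nitrate treated mice and 2 controls each. Slide 2 held 1 nitrate treated mouse and 2 controls, so its differences rest on a single nitrate array. Differences in Arntl lay between -1.53 and -1.06 on the 3 slides, those in Clock between -0.45 (slide 2) and -0.065 (slide 1), those in Npas2 between -1.33 and -0.78, those in Per3 between 0.52 and 0.90 and those in Nr1d2 between 0.28 and 0.65. The difference in Per2 ranged from 0.43 on slide 2 to 1.36 on slide 1. In Per1 it was uneven, at 1.37 on slide 1, 0.81 on slide 2 and 0.098 on slide 3. All tested members except Nr1d1 went the same way on all 3 slides, and the share of all probes that did so was not counted. Nr1d1 was lower on slides 1 and 2 and higher by 0.078 on slide 3. With the slide as a block in the fit, the same 4 genes were called higher and the same 2 lower. Of all 26158 tested probes, 1338 were called higher and 1406 lower in this fit. Npas2, 1 of the 2, had entered the test only through the controls, so its call supports nothing. The differences were -1.35 in Arntl, 0.75 in Per1 and 1.00 in Per2.

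**Figure D3:**
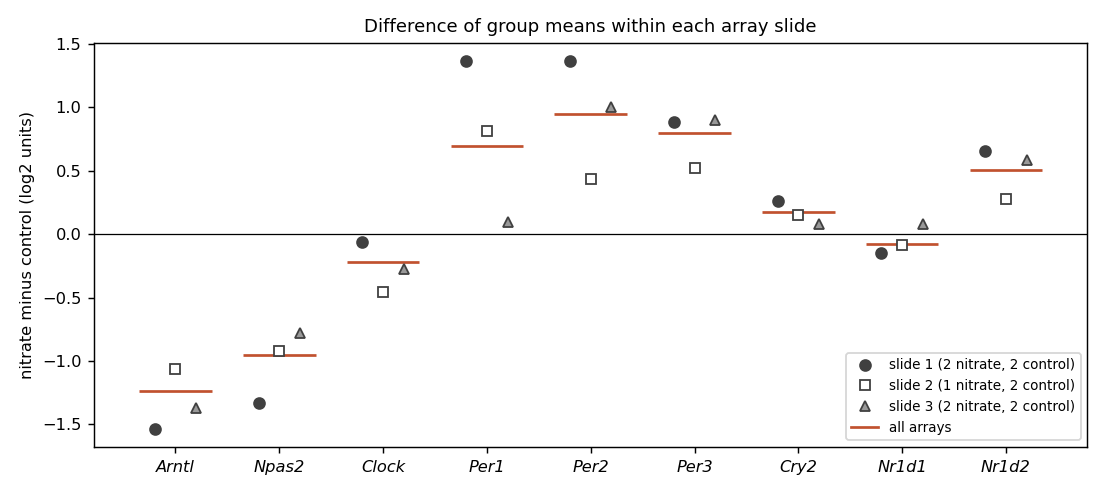
Difference of group means in log2 units (vertical axis) for each of the 9 core clock genes tested, within slide 1 (filled circles), slide 2 (open squares) and slide 3 (grey triangles), with red lines for all 11 arrays. Every gene apart from Nr1d1 keeps its sign on all 3 slides, and Per1 ranges from 0.098 on slide 3 to 1.37 on slide 1.

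Mice of the same group also differed from each other. The deviation of each mouse from the mean of its group was compared between Arntl and the 8 other members over the 11 mice, with exact permutation of the mice within groups (86400 arrangements) and adjustment over the 8 relations. Mice with less Arntl had more Nr1d2 (Pearson r = -0.92, p = 0.000116, adjusted p = 0.000926; Spearman rho = -0.90, adjusted p = 0.00444, permutation tests). The relation was alike within the groups, with r = -0.93 among nitrate treated mice and -0.95 among controls. Without the 2 mice farthest from the median, nitrate treated mice 4 and 5, it was -0.92.

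For Npas2 r was 0.91, given as a description only, since 3 of the 5 nitrate treated mice had spots that were not well above background. Among the 6 controls, where all spots were, r was 0.78. Per2 went against Arntl (r = -0.76, exact permutation p = 0.000359, adjusted p = 0.00144; rho = -0.82, p = 0.00118, adjusted p = 0.00472), with r = -0.77 without mice 4 and 5. For Per3 the Pearson r of -0.69 passed (exact permutation adjusted p = 0.0487) and the rho of -0.62 did not (adjusted p = 0.0834). For Per1 the reverse held, with an r of -0.60 (exact permutation adjusted p = 0.0517) and a rho of -0.75 (adjusted p = 0.0192). Clock (r = 0.58), Nr1d1 (r = -0.52) and Cry2 (r = -0.43) did not pass in either measure, with exact permutation adjusted p values for r of 0.140, 0.0971 and 0.171. With each mouse left out in turn, r stayed between -0.96 and -0.87 for Nr1d2 and between -0.82 and -0.69 for Per2.

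These permutations exchanged mice between slides. With deviations taken within a group on a slide, a step added after the data were seen that leaves 5 pairs of mice, r with Arntl was -0.98 for Nr1d2, -0.82 for Per2, -0.78 for Per3 and -0.94 for Cry2, and each of these genes moved against Arntl in 5 of 5 pairs. Clock (0.80) moved with it in 5 of 5 pairs, Per1 (-0.58) and Nr1d1 (-0.70) against it in 4, and Npas2 (0.90) with it in 3. Exchanges inside the pairs allow only 32 arrangements and no two-sided p below 0.0625, so no relation could pass 0.05 within slides. The exact permutation p was 0.0625 for the 5 genes with 5 of 5 pairs and 0.125 for Per1 and Nr1d1. Npas2 is again given as a description only.

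**Figure D4:**
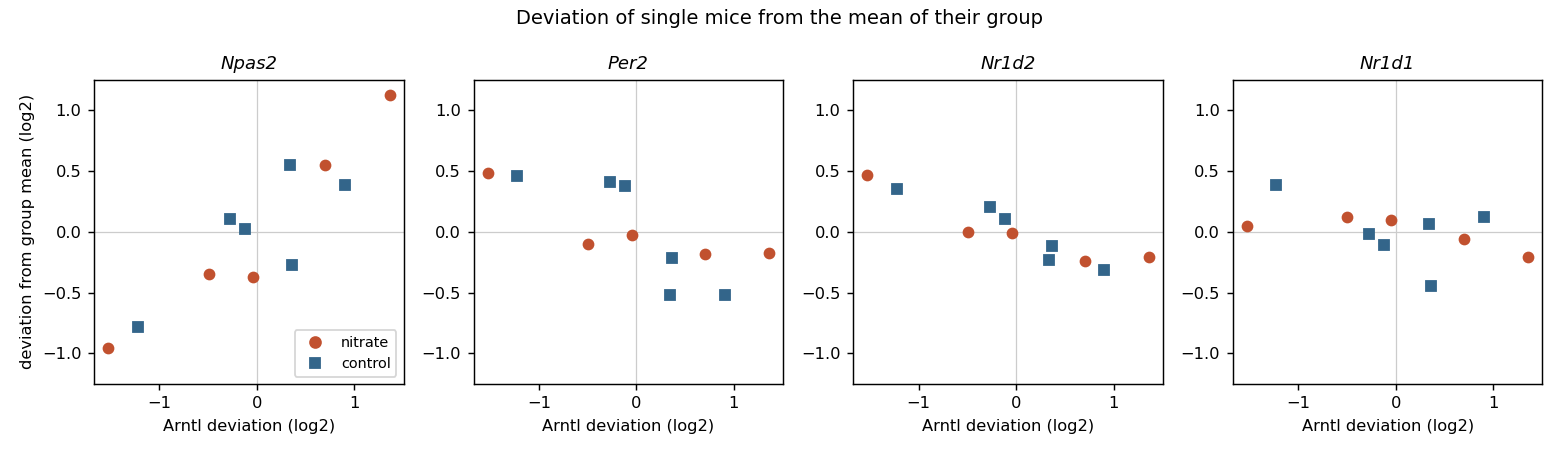
Deviation of each mouse from its group mean in log2 units, for Arntl on the horizontal axis and for Npas2, Per2, Nr1d2 and Nr1d1 on the vertical axes; circles are nitrate treated mice and squares controls. The points rise for Npas2 (r = 0.91), fall for Per2 (r = -0.76) and Nr1d2 (r = -0.92), and are spread more widely around a line for Nr1d1 (r = -0.52).

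Outside the core loop, 21 other clock components were examined by role, of which 20 could be tested. Called higher were 5 of them and called lower 1, where 4.28% and 4.86% of all tested probes were, and the median difference of the 20 was 0.12. These counts cover the components reported here and not a full list of clock genes. Dbp, Tef and Hlf encode activators that bind D-boxes and are themselves driven from E-boxes, and all of them were higher. Dbp rose by 1.22 and by 1.14 on its probes, in both cases without overlap between the groups, as in 2.68% of all probes (limma, P = 0.00104 for the first; exact permutation test, p = 0.00216). Tef rose by 0.74 (exact permutation test, p = 0.00649) and Hlf by 0.72 (p = 0.0130). Nfil3, which encodes the repressor E4BP4 of the same D-boxes, fell by 0.74 (limma, P = 0.0306; exact permutation test, p = 0.0584).

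Ciart, named Gm129 in the files, encodes a repressor of the loop and rose by 1.88 (limma, P = 0.00740; exact permutation test, p = 0.0216). Its log2 signals ran from 6.08 to 8.08 in nitrate treated mice and from 3.16 to 6.72 in controls, and the probe was well above background in 5 of the 6 controls. Bhlhe41, a repressor that competes for E-boxes, rose by 0.54 on its brighter probe (limma, P = 0.0319; exact permutation test, p = 0.0628), and its other probe had a difference of 0.40. Rora and Rorb, whose ROR proteins activate Arntl, had differences of 0.028 and -0.12 and were not called, and neither were Arntl2 (0.21), Bhlhe40 (0.22) and Timeless (0.060). The kinases and ubiquitin enzymes examined, which act on the stability of clock proteins, held no call by their brightest probes. The 4 kinase genes Csnk1d, Csnk1e, Csnk1a1 and Gsk3b had differences between 0.00071 and 0.12, and Btrc, Fbxw11 and Usp2 had differences between 0.11 and 0.31 on their brightest probes. Fbxl21 did not pass the detection rule. Nampt (-0.35) and Sirt1 (0.13), which link the clock to NAD metabolism, were not called.

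Across 16827 tested probes of other genes with a symbol in RefSeq, the deviations most like those of Arntl over the 11 mice were those of Wdr5b (r = 0.93), Trappc1 (0.93) and Lrsam1 (0.92), and the most opposed were those of Zbed6 (-0.93), the dimmer Bhlhe41 probe (-0.90) and Mdk (-0.90). For Nr1d1 they were Pon2, Wdsub1 and C7 (each 0.92) on the like side and Cdca7 (-0.95), Gzf1 (-0.93) and Arfip2 (-0.91) on the opposed side. Spearman's rho lay between 0.77 and 0.96 in size for these genes except Gzf1, for which it was -0.59. These are descriptions of the extremes of many comparisons, over mice that share slides and normalization. Apart from Bhlhe41 none of these genes is among the clock components examined.

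Markers of other cell types were read on the same arrays, and their part in the clock differences was not tested. Of 10 adipocyte markers 4 were called lower in nitrate treated mice (Adipoq, Retn, Cfd and Car3), where 4.86% of all tested probes were, and the summed signal of the list was 330970 to 448750 in nitrate treated mice and 450022 to 574898 in controls, with no overlap. Of 5 brown adipocyte markers, Cidea and Ppara were called lower (background 4.86%), Ucp1 and Elovl3 had differences of 0.23 each and were not called, and the sums ran from 112598 to 265871 and from 187320 to 318248. Of 6 smooth muscle markers Lmod1 was called higher (background 4.28%), with sums from 673104 to 705830 and from 536509 to 702619. The sum of 6 cardiac muscle markers lay between 2397 and 8947 in 4 nitrate treated mice and at 55203 in mouse 4, which also had the lowest Arntl and the highest Per2, Per3 and Nr1d2 of its group. Among controls it lay between 1733 and 4219 in 5 mice and at 35184 in control 1. Arntl was 8.23 in control 1, with a median of 8.00 and a highest value of 8.79 among controls. No marker was called in the lists for endothelium (6 of 6 tested), fibroblasts (5 of 5), macrophages (5 of 5), skeletal muscle (3 of 4), lymphocytes (2 of 5) and nerve (3 of 5).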

How the data were processed

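For each array the authors deposited spot intensities, background-subtracted and written by Feature Extraction 10.7.1.1 per the file headers, with quality flags, and a table of log2 values. The deposited log2 table was checked against the intensities, and each probe has a median of 0 in it after quantile normalization. Here the processed signal, with values under 1 set to 1, was put on the log2 scale, freed of control and outlier-flagged spots, averaged by probe and quantile normalized over the 11 arrays. Tested were the 26158 probes flagged as well above background on 5 or more arrays of a group. This rule leaves out the flag for a located spot, which was decided after seeing that Clock and Nr1d2 fail it although they are well above background on all arrays. Groups were compared with limma 3.58.1 in R 4.3.3 (lmFit, eBayes), and by two-sided exact permutation over all 462 divisions of the mice, whose smallest P value is 0.00216. Genes with several probes are counted by the brightest tested probe.

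The members, the other clock components, the markers and the rule for named genes (members, listed components, and the 3 most like and most opposed genes to Arntl and to Nr1d1) were chosen with earlier results of these data known. Some of the components listed at the start are not reported here, whatever their values. On simulated data for this comparison with 26141 probes, limma recovered 87% of changes of 0.5 and 98% of changes of 1 log2 unit. It gave 5.33% of unchanged probes a P value under 0.05. The simulated noise was independent between probes and held no slide or column effects. Changed probes were drawn at random, so these are not rates for the core clock genes. Positions of probes are those of the files, in mm9, and promoter sequences are from RefSeq in GRCm38.p6. As alternatives, another normalization, normexp, an offset of 16, the authors' table, other detection rules, outlier spots, a trended prior, blocks for slide and replicate number, other probes and the omission of each mouse were tried.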

Additional observations from a re-analysis of the deposited data

Results flagged for a closer look

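In groups of 5 or 6 mice, a mouse was singled out where its gap to the nearest other mouse took up more of the range of its group than Dixon's 95% limit allows. Of 80 groups of values examined, 8 held such a mouse, where chance gives about 4. Among the core clock genes this was Per2 in nitrate treated mouse 4, which lay above the other nitrate treated mice by 0.771 of the range. Without that mouse the difference in Per2 was 0.83 and it was still called. Among the other clock components, Rorb was low in nitrate treated mouse 3 (0.857 of the range), Arntl2 high in control 4 (0.680), Fbxw11 low in control 1 (0.715) and Usp2 low in control 2 (0.657). In control 1 the summed signal of the smooth muscle markers was low (0.696), and those of the brown adipocyte markers (0.739) and of the cardiac muscle markers (0.704) were high. Without control 1 the difference in Arntl was -1.17 and that in Per1 0.50, and neither was called.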

How the results depend on the processing

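Per2, Per3 and Nr1d2 kept their direction and their call under every alternative in which they were tested. Across the alternatives with a test, the largest P values were 0.00274 for Per2, 0.00167 for Per3 and 0.0160 for Nr1d2 (limma). With each mouse left out, the number of core clock genes called higher lay between 3 and 4. The number called lower lay between 0 and 2. It was 0 without nitrate treated mouse 4 and also without controls 1 and 5 together. Where 2 were called lower, 1 was Npas2, which entered the test only through the controls, so these counts support nothing about it. With a spot both located and well above background on all 11 arrays, 2 were called higher and 1 lower, since fewer genes could be tested. Of all 19149 probes tested then, 724 and 904 were. Per3, Nr1d2, Npas2, Clock and Nr1d1 were left untested by that rule. With both required on at least 5 arrays of either group, 3 and 2 were called, against 982 and 1145 of 23629 probes. Clock and Nr1d2 were untested there. Normexp background correction left 1286 transcripts called against 2391, of which 36.2% were higher against 46.8%, and the core clock genes stayed at 4 and 2, although the difference in Npas2 went from -0.95 to -0.28 and that in Per3 from 0.80 to 0.43. With an offset of 16 that in Npas2 was -0.57. Without a detection filter Per1 was not called. The number of other clock components called, 6, lay between 4 and 8 with each mouse left out, and that of transcripts between 1809 and 2689.

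Values near 0 changed sign. With each mouse left out, the difference in Nr1d1 lay between -0.16 and 0.0028, and that in the ratio of Per1 to Per3 between -0.34 and 0.049. The ratio of Per1 to Per2 differed by 0.024 and that of Per1 to Per3 by 0.28 under normexp, and the latter by 0.061 with an offset of 16 (it was 0.049 without control 5). The ratio of Clock to Npas2, for which dim Npas2 spots allow no test, differed by 0.99 without nitrate treated mouse 5, 0.089 under normexp and 0.36 with an offset of 16. Nr1d1 had a difference of 0.0028 without control 6 and 0.078 within slide 3. For these the cause was not tested. Deviations of mice with the same number had correlations from -0.13 to 0.18. Only for number 2 was the best matching mouse the one with the same number. These values cannot show whether the design paired the mice. With the replicate block, 4 core clock genes were called higher and 2 lower, Npas2 among the latter, and Nr1d1 differed by 0.0028. In this fit 2705 of 26158 transcripts were called, 1245 higher and 1460 lower. Arrays limit Cry1, at background throughout, and Npas2 in nitrate treated mice.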
